A study of Homo sapiens with 6 samples.

Results

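Calpains are a family of cysteine proteases, and the 10 members CAPN1, CAPN2, CAPN3, CAPN5, CAPN6, CAPN7, CAPN8, CAPN9, CAPN10 and CAPN13 were followed in RNA of DLD-1, a line of human colon cancer cells. They were read through every probe set that the array annotation assigns to exactly 1 of these symbols, which gave 22 of the 54613 probe sets tested, and 10 of 19775 genes. The members were chosen by family name, with the differences between the 2 subclones below already known. Differences of these 10 genes are therefore given as descriptions, with their standard error (SE) and without individual p-values. Where their probe sets past a p-value threshold are counted, named or marked below, this is a description too.

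The arrays came from 2 subclones of DLD-1, labelled DLD-1Δα-Cat (3 samples) and DLD-1α-Cat (3 samples). Both had been cultured for 96 h in a gel of type I collagen at 1 mg/ml and received no treatment. What Δα-Cat abbreviates is not stated in the labels, each subclone stands for a single derivative of the line, and the samples of a subclone are not said to be separate cultures. The p-values thus reflect the spread among these arrays alone, which could be technical in origin. Values are RMA log2 intensities, 1 array per sample, and the number of arrays limits their precision.

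CTNNA1, which encodes αE-catenin, the link between cadherin complexes and actin, served as a check of the labels. Its brightest probe set averaged 11.23 in DLD-1Δα-Cat, against 12.75 in DLD-1α-Cat, and 4 of its 5 probe sets were lower in DLD-1Δα-Cat past the threshold of 0.05 on limma's adjusted p. All 10 colon epithelial markers had means above the array-wide median of 6.12, and of these KRT20 was called higher in DLD-1Δα-Cat (13.02, against 8.13 in DLD-1α-Cat) and CDX1 lower (6.34, against 7.43 in DLD-1α-Cat). Above that median also lay 2 of 6 fibroblast, 1 of 3 leukocyte and 0 of 4 endothelial markers, and of these CD14 was called lower in DLD-1Δα-Cat (6.57, against 7.74 in DLD-1α-Cat). As a sign of RNA quality, the 3' control probe set of β-actin exceeded its 5' counterpart by log2 differences that lay between 5.07 and 5.38 in DLD-1Δα-Cat, against a range between 4.36 and 4.89 in DLD-1α-Cat. The same measure of GAPDH overlapped, at 0.69, 0.82 and 0.74 in DLD-1Δα-Cat, against 0.51, 0.79 and 0.67 in DLD-1α-Cat. The β-actin measure thus separated the subclones and that of GAPDH did not. The part of RNA quality in the differences below was not tested.

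Calpains cut their substrates at a few positions and so alter proteins rather than degrade them, and most need calcium for it. The conventional calpains, CAPN1 and CAPN2, work as pairs with the small subunit CAPNS1 and are held in check by calpastatin (CAST). Talin, focal adhesion kinase and spectrin are among their best known substrates, which ties them to the turnover of cell adhesions and to cell migration. Other members are mainly known from single tissues, such as CAPN3 in skeletal muscle and CAPN8, CAPN9 and CAPN14 in the lining of the digestive tract.

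The clearest difference among the 10 genes was that of CAPN13, a member with the domain order of the conventional calpains whose substrates are little known. Its brightest probe set, 229499_at, read 6.43, 6.48 and 6.99 in DLD-1Δα-Cat, against 5.35, 5.37 and 5.53 in DLD-1α-Cat. All arrays of DLD-1Δα-Cat thus lay above those of DLD-1α-Cat, by 1.22 (SE 0.166) or 2.33-fold on the RMA scale. The probe set 234709_at gave 3.74, 4.72 and 5.21 in DLD-1Δα-Cat, against 3.19, 3.24 and 3.28 in DLD-1α-Cat. The difference there was 1.32 (SE 0.331), the largest of the 22 probe sets, with a wide spread in DLD-1Δα-Cat and a level near the bottom of the scale in DLD-1α-Cat. The dimmest, 1552801_at, differed by 0.30 (SE 0.129), again without overlap of the arrays. Both dimmer probe sets lay under 5 on average, where signal and background are hard to separate.

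CAPN5 was next. It belongs to the calpains that carry a C2 domain in place of the calcium-binding penta-EF-hand domain, and human mutations in it cause an inherited inflammation of the eye. Its probe set 226292_at read 8.61, 9.04 and 8.86 in DLD-1Δα-Cat, against 7.88, 8.21 and 8.23 in DLD-1α-Cat. The probe set 205166_at read 7.80, 8.16 and 8.08 in DLD-1Δα-Cat, against 7.13, 7.34 and 7.33 in DLD-1α-Cat. Neither probe set showed overlap between the subclones, and the differences of 0.73 (SE 0.157) and 0.75 (SE 0.133) were close in size, 1.66-fold and 1.68-fold.

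All 3 probe sets of CAPN3, the muscle calpain whose loss causes a limb-girdle muscular dystrophy, were higher on average in DLD-1Δα-Cat, but they were uneven. The brightest, 210944_s_at, read 8.48, 9.34 and 8.81 in DLD-1Δα-Cat, against 7.02, 8.67 and 8.86 in DLD-1α-Cat. Its difference of 0.70 (SE 0.476) rested on replicate 1 of DLD-1α-Cat, without which it was 0.11, and the arrays overlapped. The other two, 211890_x_at and 214475_x_at, did not overlap and differed by 0.35 (SE 0.110) and 0.63 (SE 0.166). Their suffix marks probe sets in which some probes may also match other transcripts, so they are uncertain for CAPN3.

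**Figure D1:**
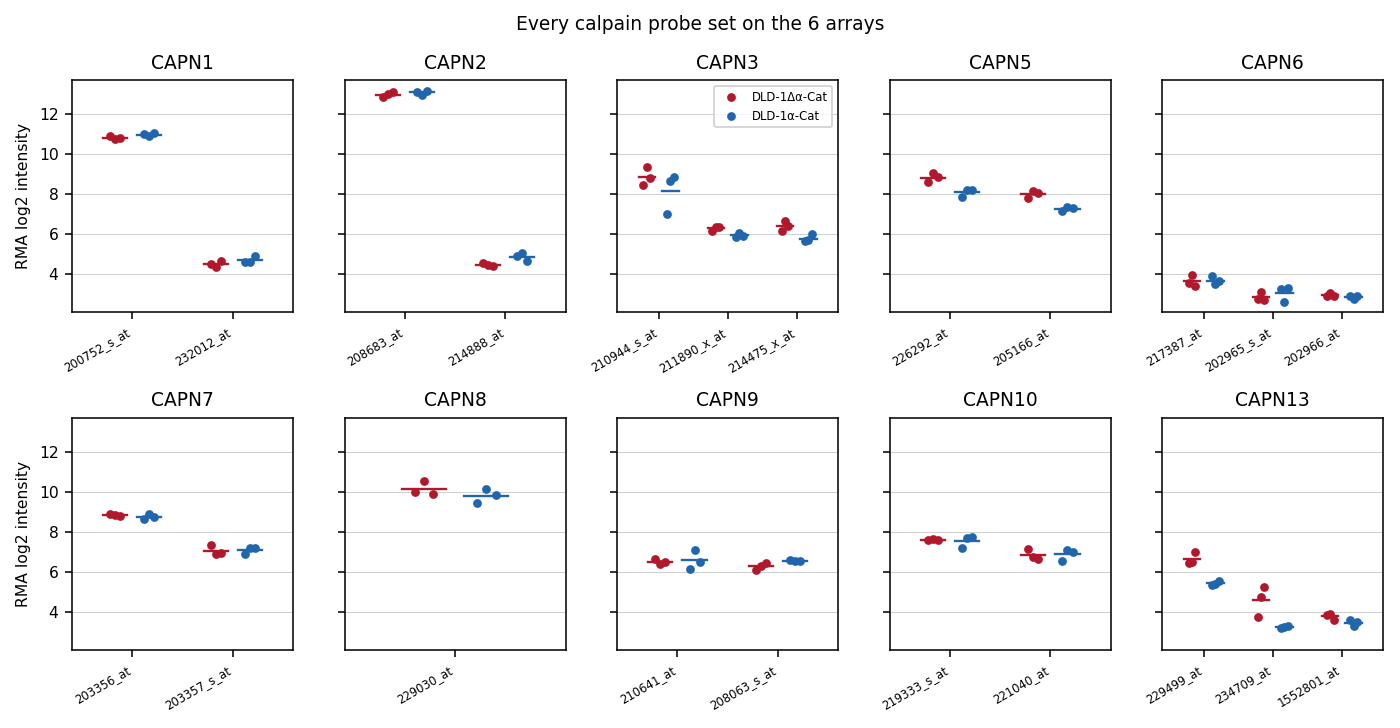
RMA log2 intensity of each calpain probe set on each array, with 1 panel per gene, DLD-1Δα-Cat in red left of DLD-1α-Cat in blue; points are arrays and lines are means of 3. CAPN5 and CAPN13 show separated groups in all of their probe sets, while those of CAPN1, CAPN7, CAPN8 and CAPN10 overlap; heights of different probe sets are not comparable.

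The conventional calpains were bright and stood close together in the 2 subclones. CAPN2, the large subunit of m-calpain, read 12.87, 13.01 and 13.11 in DLD-1Δα-Cat, against 13.14, 12.98 and 13.19 in DLD-1α-Cat (208683_at). CAPN1, that of μ-calpain, read 10.92, 10.78 and 10.80 in DLD-1Δα-Cat, against 11.01, 10.90 and 11.07 in DLD-1α-Cat (200752_s_at). The arrays overlapped in both genes, with differences of -0.11 (SE 0.115) for CAPN2 and -0.16 (SE 0.105) for CAPN1. Their second probe sets were dim. That of CAPN1, 232012_at, differed by -0.21 with overlap, and that of CAPN2, 214888_at, by -0.41 (SE 0.130) without it, between 4.40 and 4.55 in DLD-1Δα-Cat and between 4.66 and 5.04 in DLD-1α-Cat. All 4 probe sets of these genes were thus lower on average in DLD-1Δα-Cat, and the largest difference came from the dim range.

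CAPN8 and CAPN9 form a complex in the mucus cells of the stomach, as known from mice. The single probe set of CAPN8 was among the brighter ones of the array, at 9.99, 10.53 and 9.90 in DLD-1Δα-Cat, against 9.44, 10.14 and 9.86 in DLD-1α-Cat. Its difference of 0.33 (SE 0.227) left the arrays overlapping. CAPN9 had its 2 probe sets near the array-wide median. Of these 210641_at overlapped and differed by -0.07 (SE 0.225), and 208063_s_at read 6.10, 6.29 and 6.43 in DLD-1Δα-Cat, against 6.58, 6.53 and 6.56 in DLD-1α-Cat. The arrays of 208063_s_at did not overlap, at -0.28 (SE 0.117). No protein-coding gene starts between CAPN8 and CAPN2, neighbours on chromosome 1, and their brightest probe sets had differences of opposite sign.

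The remaining 3 members showed small differences. CAPN7, which lacks the penta-EF-hand domain and binds sorting proteins of the ESCRT machinery, differed by 0.09 (SE 0.109) and -0.02 (SE 0.160). CAPN10, first known as a candidate gene for diabetes, differed by 0.06 (SE 0.154) and -0.05 (SE 0.190). In each of these genes the arrays overlapped in both probe sets. CAPN6, which lacks the active-site cysteine and is known in mice for its effect on microtubules and muscle growth, had 3 dim probe sets between 2.60 and 3.94 on all arrays. Such values cannot be told from background, and the differences of -0.20, -0.04 and 0.12 went both ways.

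Over all 22 probe sets, 12 differences were above 0 and 10 below, with a median of 0.07, beside a median of -0.04 over all probe sets of the array. Differences of at least 1 were seen in 2 probe sets, both of CAPN13. In 6 of the 9 genes with more than 1 probe set, every difference lay on the same side of 0. The threshold of 0.05 on limma's adjusted p was passed by 2 probe sets, 205166_at of CAPN5 and 229499_at of CAPN13, both higher in DLD-1Δα-Cat, or 9.09% of the 22, beside 2.45% of all probe sets in either direction and 1.72% higher. Groups without overlap were found in 10 of the 22, 8 higher and 2 lower, beside 22.1% of all probe sets in either direction, 10.4% higher and 11.7% lower. Of these 10, 234709_at and 1552801_at of CAPN13, 214888_at of CAPN2 and 202966_at of CAPN6 averaged under 5. Signal and background are hard to separate there. Since the members were chosen with this comparison known, nothing is read from these shares or from the calls under the alternatives, which are descriptions. With the replicate number as a block, 3 probe sets passed, the third being 226292_at of CAPN5. That fit called 935 probe sets higher and 357 lower over the array. Without replicate 3 of DLD-1α-Cat 0 passed (limma, with 7 at an unadjusted p under 0.05), beside 291 higher and 98 lower over the array. The array-wide share at an unadjusted p is not given here. Without replicate 1 of DLD-1Δα-Cat 3 passed, beside 442 higher and 191 lower over the array. Without replicate 2 or 3 of DLD-1Δα-Cat or replicate 1 or 2 of DLD-1α-Cat only 229499_at of CAPN13 did. These last fits called 324 to 1065 probe sets higher and 111 to 337 lower over the array.

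**Figure D2:**
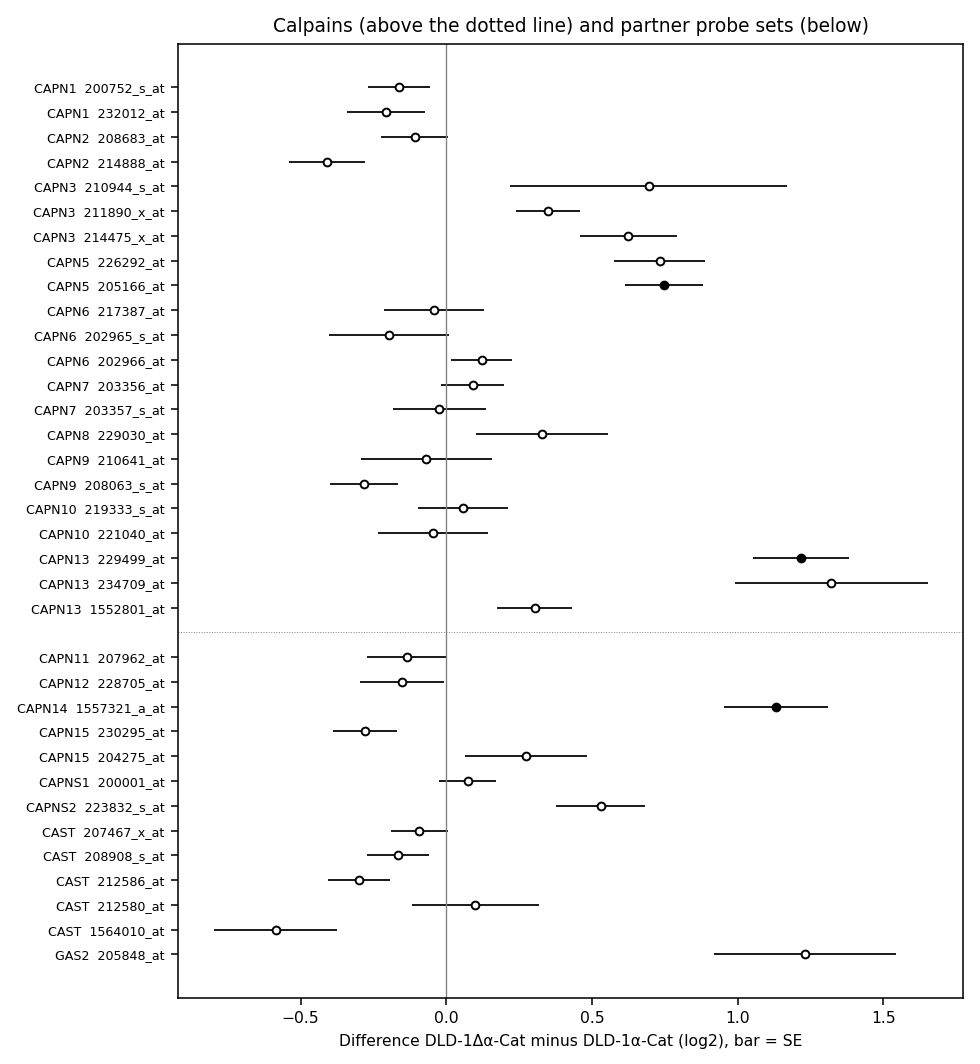
Difference DLD-1Δα-Cat minus DLD-1α-Cat in log2 units for the 22 calpain probe sets (above the dotted line) and for 13 probe sets of further calpains, small subunits and inhibitors (below); points are differences of means, bars are SE, and filled points passed limma's threshold. CAPN13, CAPN5, CAPN3, CAPN14 and GAS2 stand to the right of 0, and CAPN1, CAPN2 and most CAST probe sets to the left.

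The pattern of 234709_at of CAPN13 over the 6 arrays, each value taken relative to the probe set's own mean, was set against that of 19774 other genes. This probe set was taken for its largest difference. It averaged under 5, where signal and background are hard to separate, and was widely spread in DLD-1Δα-Cat. The closest were BPIFB1, PRUNE2 and PITPNM3, at root mean square distances of 0.183, 0.190 and 0.218 log2 units. BPIFB1, a secreted protein of airway and nasal mucosa, read 7.40, 8.07 and 8.73 in DLD-1Δα-Cat, against 7.10, 6.78 and 7.04 in DLD-1α-Cat. Of the closest genes only PITPNM3 passed limma's threshold. They were chosen for this likeness, so the likeness and the call are descriptions.

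The other calpain genes on the array were outside the 10 and were read from the fit over all probe sets. Like the lists of partners below, they were chosen with earlier results of these data known. Their adjusted p are therefore descriptions and no independent support. CAPN14, a calpain of the oesophageal epithelium that is induced in allergic inflammation there, rose. It read 8.14, 7.68 and 7.71 in DLD-1Δα-Cat, against 6.84, 6.88 and 6.42 in DLD-1α-Cat. The arrays did not overlap, and the difference was 1.13 (SE 0.179, limma adjusted p = 0.0244) or 2.19-fold, higher in all 3 arrays of DLD-1Δα-Cat. When single arrays were left out, the call held in 1 of 6 fits, with an adjusted p from 0.0504 to 0.0874 in the others. CAPN11, a testis calpain (-0.14), CAPN12, known from mouse hair follicles (-0.15), and CAPN15, the large calpain related to the fly small optic lobes protein (-0.28), had adjusted p of 0.673, 0.647 and 0.273. The second probe set of CAPN15 stood at 0.27.

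CAPN13 and CAPN14 lie near each other on chromosome 2, with 1 protein-coding gene, GALNT14, starting between them. GALNT14, an enzyme that starts mucin-type sugar chains, was dim, at 4.13 in DLD-1Δα-Cat, against 4.28 in DLD-1α-Cat, and differed by -0.16 (limma adjusted p = 0.490). At this level signal and background are hard to separate. The bases just before the start sites of CAPN13 and CAPN14 are shown because the brightest probe sets of these neighbours were both higher by more than 1 log2 unit. Each run holds the 250 bases before a RefSeq start site (GRCh38.p14, minus strand, 5′ to 3′), and capitals mark motif matches.
CAPN13, chr2:30807447-30807696: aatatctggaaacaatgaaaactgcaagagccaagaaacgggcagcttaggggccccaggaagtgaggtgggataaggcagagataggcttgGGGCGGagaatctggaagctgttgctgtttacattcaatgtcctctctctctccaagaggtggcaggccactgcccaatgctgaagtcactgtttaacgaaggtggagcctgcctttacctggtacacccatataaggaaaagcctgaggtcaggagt
CAPN14, chr2:31217516-31217765: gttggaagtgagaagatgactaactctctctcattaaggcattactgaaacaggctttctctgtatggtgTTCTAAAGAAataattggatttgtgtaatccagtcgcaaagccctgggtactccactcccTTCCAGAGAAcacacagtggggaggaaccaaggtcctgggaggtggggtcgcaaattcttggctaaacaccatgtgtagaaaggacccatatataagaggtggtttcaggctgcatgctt
CAPN14, chr2:31233958-31234207: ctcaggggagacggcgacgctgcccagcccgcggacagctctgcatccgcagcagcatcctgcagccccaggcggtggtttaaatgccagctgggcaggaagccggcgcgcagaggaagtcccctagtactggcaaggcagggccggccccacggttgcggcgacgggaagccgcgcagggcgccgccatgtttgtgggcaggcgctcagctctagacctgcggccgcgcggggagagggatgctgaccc

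In these windows 6 motifs were searched on both strands, and the matches shown do not overlap. The CAPN13 window held 1 GC box of the SP1 and KLF type (GGGCGG), starting 158 bases before the start site, a motif found in 42.6% of all 35116 windows of this length. The CAPN14 window at chr2:31217516-31217765 held 2 matches to the STAT6 element (TTC and GAA with 4 bases between them), starting 180 and 120 bases before the start site, and 5.38% of all windows held at least 1. No window held the TATA box core (TATAAA, 10.7% of windows), the AP-1 element (TGANTCA, 6.57%), the E-box of the ZEB and SNAI type (CACCTG, 17.5%) or the TCF/LEF core (CTTTGA, 11.2%). Only the stated letters were searched, so variants of these motifs were not counted. The letters tataag, which differ from TATAAA in the last base, stand near the end of the CAPN13 window. They also stand near the end of the CAPN14 window at chr2:31217516-31217765. The windows differed in base composition: the CAPN13 window had 3 CpG dinucleotides and those of CAPN14 had 2 and 24, beside a median of 11. These matches describe letters only.

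Of the 4 genes for small subunits and inhibitors, which set the activity of the conventional calpains, 0 passed (limma, with 2 at an unadjusted p under 0.05). CAPNS1, their shared small subunit, read 13.09, 13.14 and 13.17 in DLD-1Δα-Cat, against 13.08, 13.00 and 13.11 in DLD-1α-Cat, with overlap (0.07, limma adjusted p = 0.757). CAST was bright, at 12.31, 12.32 and 12.20 in DLD-1Δα-Cat, against 12.39, 12.38 and 12.33 in DLD-1α-Cat (-0.09, limma adjusted p = 0.693). These arrays did not overlap, and neither did those of 3 further CAST probe sets, at -0.17, -0.30 and -0.59, while the fifth differed by 0.10. None of the 5 passed. Over the array, 22.1% of probe sets did not overlap in either direction and 11.7% were lower without overlap. The 5 CAST probe sets read the same RNA samples, so nothing is read from this count.

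CAPNS2, a second small subunit, and GAS2, a microtubule and actin-binding protein reported to inhibit m-calpain, were dimmer. CAPNS2 read 5.73, 5.29 and 5.25 in DLD-1Δα-Cat, against 5.01, 4.82 and 4.86 in DLD-1α-Cat (0.53, limma adjusted p = 0.149). GAS2 read 6.15, 5.56 and 4.75 in DLD-1Δα-Cat, against 4.25, 4.19 and 4.33 in DLD-1α-Cat (1.23, limma adjusted p = 0.105). Neither overlapped between the subclones, and the 3 arrays of DLD-1Δα-Cat were widely spread for GAS2. Among the alternatives run, its difference passed only without replicate 3 of DLD-1Δα-Cat, at 1.60 (limma adjusted p = 0.0243).

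The 7 lists of partners held 86 measured genes, each read by its brightest probe set. Of these, 3 rose and 1 fell, beside 2.59% of 19775 genes higher and 0.991% lower. The 3 include CAPN14, itself a calpain. As the lists were chosen with earlier results of these data known, nothing is read from these counts. The adjusted p of list genes are descriptions. The median difference over the 86 genes was 0.01. Of 22 adhesion and cytoskeletal substrates 0 passed in either direction (limma, with 3 at an unadjusted p under 0.05), with differences from -0.29 to 0.44 and a median of 0.04. The arrays did not overlap in 4 of these 22, all higher, beside 22.1% of all probe sets in either direction and 10.4% higher, so nothing is read from this count. Among the 4 was focal adhesion kinase (PTK2), at 12.65 in DLD-1Δα-Cat, against 12.21 in DLD-1α-Cat (0.43, limma adjusted p = 0.0935). Talin 1 (TLN1, -0.08) and spectrin αII (SPTAN1, -0.29) had adjusted p of 0.812 and 0.446; PTK2, TLN1 and SPTAN1 were named as well known substrates after their values had been seen.

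WAS, an activator of actin branching in blood cells, had the largest difference of that list, 0.44 (limma adjusted p = 0.311). Its dimmer probe set passed, at 6.66 in DLD-1Δα-Cat, against 6.09 in DLD-1α-Cat (0.57, limma adjusted p = 0.0348). Of 20 signalling and apoptosis substrates 0 passed as well (limma, with 3 at an unadjusted p under 0.05), with a median of 0.00. The largest difference there among genes above the array-wide median was that of the transcription factor MYC, at 8.44 in DLD-1Δα-Cat, against 8.92 in DLD-1α-Cat (-0.47, limma adjusted p = 0.345). Leaving out replicate 1 of DLD-1α-Cat, it stood at -0.74 (limma adjusted p = 0.0345).

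DYSF, a membrane repair protein that binds CAPN3 in muscle, rose among 5 partners of single calpains, whose median was 0.03. It read 6.73, 7.16 and 6.79 in DLD-1Δα-Cat, against 5.98, 5.60 and 5.83 in DLD-1α-Cat, without overlap (1.09, SE 0.159, limma adjusted p = 0.0181). With the replicate number as a block its adjusted p was 0.0571, and the call held in 3 of 6 fits that each dropped 1 array. The giant muscle protein titin (TTN), another binding partner of CAPN3, was dim and differed by -0.04, and IST1 and CHMP1A, ESCRT proteins of the kind that CAPN7 binds, by 0.08 and 0.03. These did not pass.

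SRI, which encodes sorcin, a calcium-binding protein with the penta-EF-hand fold of the calpain subunits, fell among 4 such relatives (median -0.21). It read 11.51, 11.33 and 11.35 in DLD-1Δα-Cat, against 12.04, 11.88 and 12.00 in DLD-1α-Cat, without overlap (-0.58, SE 0.109, limma adjusted p = 0.0425). Its second probe set fell by 0.79 on the log2 scale (limma adjusted p = 0.0106), at 8.57 in DLD-1Δα-Cat, against 9.36 in DLD-1α-Cat. The brighter probe set had an adjusted p of 0.0571 when the replicate number was a block, and held its call in 0 of 6 fits that each dropped 1 array.

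Of 27 genes of calcium entry, release and pumping, 1 rose, 0 fell and the median was -0.03. The gene that rose was ATP2A3, the calcium pump SERCA3 of the endoplasmic reticulum. It read 6.42, 6.37 and 6.36 in DLD-1Δα-Cat, against 4.90, 5.25 and 5.63 in DLD-1α-Cat, without overlap (1.12, SE 0.183, limma adjusted p = 0.0266). Its other 4 probe sets, which were dimmer, did not pass and lay between -0.10 and 0.82. With the replicate number as a block the adjusted p was 0.0517, and the call held in 2 of 6 fits that each dropped 1 array.

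**Figure D3:**
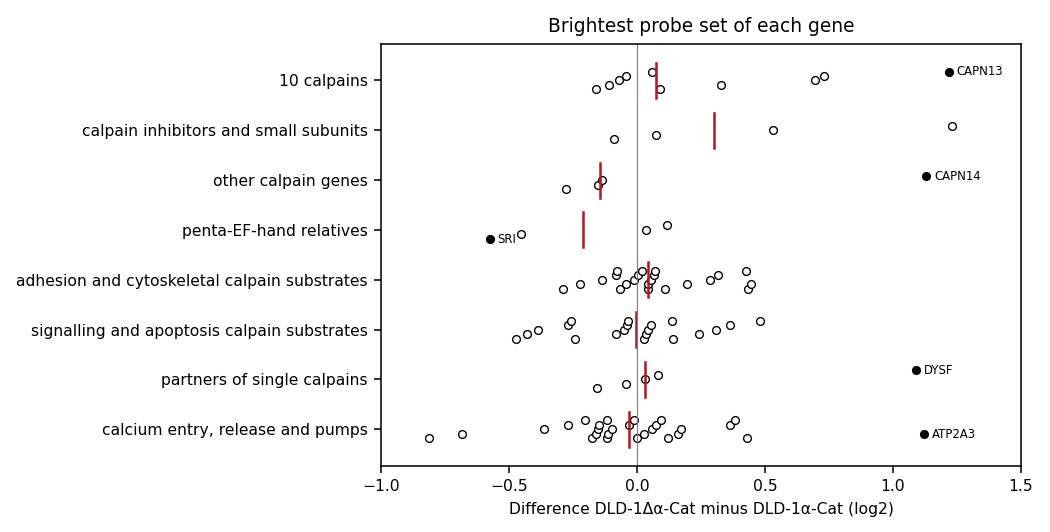
Difference DLD-1Δα-Cat minus DLD-1α-Cat in log2 units by the brightest probe set of each gene, for the 10 calpains and the 7 lists of partners; each point is a gene, red lines are list medians, and filled, named points passed limma's threshold. Most substrates and calcium genes lie within 0.5 of 0, and CAPN14, DYSF and ATP2A3 stand to the right and SRI to the left; the dots of the 10 calpains are a description.

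In bulk RNA of a culture, fewer cells with a transcript and less of it per cell cannot be told apart, and the arrays measure neither calpain protein nor its activity.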

How the data were processed

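Per the submitters' processing notes, the authors made the deposited log2 values with RMA in Affymetrix Expression Console, of unstated version. RMA brings all arrays to the same overall brightness, which hides any change common to all transcripts. Of 54675 probe sets 62 controls were left out. The platform annotation of 2016 gave 1 symbol to 41091 probe sets, several to 1801 and none to 11721; 9 of the 10 calpains had a window in the RefSeq promoter table.

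Every probe set was compared between the subclones in R 4.3.3 with lmFit and eBayes of limma 3.58.1 (two-sided, Benjamini-Hochberg adjustment over 54613 probe sets, threshold 0.05), and the fit was tested on simulated data. It called 940 probe sets higher and 398 lower in DLD-1Δα-Cat. Folds are on the RMA scale. Calpains and lists were chosen with earlier results of these data known. Named besides the members are CTNNA1, 4 inhibitors and subunits, up to 4 called genes of each list (or, with none, the most different above the array-wide median), and the 3 genes most like the most different calpain probe set; others were named after their values were seen.

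Both subclones carry replicate numbers 1 to 3 in their titles. After subtraction of group means, arrays with the same number correlated over probe sets at 0.174, 0.407 and 0.110. Arrays with different numbers correlated at -0.335 to 0.165, the highest being replicate 3 of DLD-1Δα-Cat with replicate 1 of DLD-1α-Cat. These values do not settle whether the numbers are pairs, and no design states it. The main fit was therefore unpaired, and the number entered as a block only in an alternative. The alternatives were this replicate block, the brightest or the mean probe set per gene, leaving out probe sets under 5, quantile normalization, centring, a variance trend with robust estimation, array weights and leaving out each array.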

Additional observations from a re-analysis of the deposited data

How the results depend on the processing

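Of the 2 calpain probe sets that passed, the count was 4 with a variance trend and robust estimation and lay between 0 and 3 without single arrays, lowest without replicate 3 of DLD-1α-Cat; no calpain probe set was called lower under any alternative. With the replicate number as a block, 1 of the 3 risen partner genes still passed, and SRI, DYSF and ATP2A3 lost the call. The block also called 1 partner gene lower that was not called in the main fit. It ended no call of CTNNA1, CAPN14 or the calpains. Without single arrays the partner lists had 0 to 2 higher and 0 to 1 lower genes. Over all probe sets, 1496 were higher and 858 lower with array weights, while a robust fit with a variance trend gave 1456 and 751, and leaving out an array gave 291 to 1065 higher and 98 to 337 lower. The cause was not tested. No sign of a called calpain difference turned under the alternatives run. Under settings that kept all arrays, 144 calpain differences moved by less than the spread between replicates and 1 by more. The latter was that of CAPN2 with the mean of its probe sets. The brightest probe set, the replicate block, leaving out dim probe sets and the variance trend cannot move a difference. The 144 thus include values fixed in advance and do not measure stability. Values near the floor of the scale, as in CAPN6, limit what can be seen there.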
